A study of Sus scrofa domesticus with 150 samples.

Results

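Expression of 9 genes of the prostaglandin and leukotriene pathways was followed in skin wounds of pigs: PTGS1, PTGS2, PTGES, PTGIS, HPGD, ALOX5, ALOX5AP, LTA4H and ALOX15. The genes were taken from the table of read counts by symbol. The table holds 30461 genes, and 26905 of them were counted in some sample. All 9 genes were found, 7 by the name in the table and 2 (PTGIS and ALOX5) by the protein that the table's description column matches to the gene.

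RNA was sequenced from 150 samples of 6 female domestic pigs of a Yorkshire mix. Full-thickness circular excisional wounds on the back were covered with 2 layers of dressing and received no other treatment. The paper states that the sites of the biopsies were given a topical antibiotic ointment against infection. The baseline is the excised whole skin of day 0, with 1 sample from each of the 6 animals, and it has no edge or center. After wounding, biopsies were taken from the edge and from the center of the same wound on 14 days: daily from day 1 to day 7, then on days 9, 11, 13, 15 and 16, and last on days 19 and 21. On each day 3 of the 6 animals were sampled and the 2 sets of animals mostly alternated, so neighbouring days mostly differ in animals. The first 10 of these days have 6 wounds (2 per animal) and the last 4 days have 3 wounds (1 per animal). A sampled wound left the experiment, so each of the 72 wounds gave 1 edge and 1 center sample and each day describes other wounds. The day and location together give 29 states.

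Prostaglandins and leukotrienes are lipid mediators that cells make from arachidonic acid after phospholipases A2 release it from membranes. The cyclooxygenases convert it to prostaglandin H, from which terminal synthases make the single prostanoids, such as prostaglandin E (PTGES) and prostacyclin (PTGIS). In the other branch, arachidonate lipoxygenase ALOX5 with its activating protein ALOX5AP makes leukotriene A, which LTA4H hydrolyses to leukotriene B, an attractant of neutrophils. In skin these mediators are known for their roles in vasodilation, pain, recruitment of leukocytes and repair of the epidermis.

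The values are read counts per gene, given here as CPM, which scales each library to the same total of reads counted on genes. Total counts per sample ranged from 13133379 to 24895572, and 3 counts corresponded to between 0.121 and 0.228 CPM, which covers counting error only. Groups of 6 samples are given as the lowest, the median and the highest value. Statements that groups did not overlap describe these samples, and the share of all genes without overlap was not counted. Differences are on the log2 scale with their standard error (SE) from edgeR's quasi-likelihood test, and p-values are Benjamini-Hochberg adjusted over all genes tested, with a threshold of 0.05. Wounds of an animal are not independent, so these p-values measure the spread between samples. In the comparisons with day 0, a replicate was left out by its number across the whole fit. A call could thus be lost through a sample of another state. As bulk tissue was sequenced, fewer cells of a type and less RNA per cell cannot be told apart in any of these values.

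The genes lie on contigs of the reference used for counting, whose build is not given in the sources used here. PTGS1 (ENSSSCG00025012272) spans bases 32623 to 59528 of its contig, PTGS2 (ENSSSCG00025068918) 3003964 to 3012838, PTGES (ENSSSCG00025026461) 1317789 to 1331481, HPGD (ENSSSCG00025011617) 3400058 to 3442215 and PTGIS (ENSSSCG00025076422) 821128 to 868899, all on the minus strand. ALOX5 (ENSSSCG00025071153) spans 634512 to 682789, ALOX5AP (ENSSSCG00025038556) 726686 to 753261, ALOX15 (ENSSSCG00025049493) 8967 to 136567 and LTA4H (ENSSSCG00025044448) 1860465 to 1892514, on the plus strand. PTGS2 and PLA2G4A, which encodes the cytosolic phospholipase A2 that releases arachidonic acid, are neighbours on 1 contig. LTA4H lies within AMDHD1, a gene of the opposite strand with a mean count of 35.3 per sample against 1242 for LTA4H, and whether strand was used in counting is not given, so the split of reads between them is uncertain. No row was matched to ALOX12, and reads of related lipoxygenases could have been counted on ALOX15.

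7 libraries stood apart from the other samples of their state in their correlation over all genes: replicate 2 of the day 2 center, replicate 4 of the day 3 center, replicate 6 of the day 3 edge, replicate 6 of the day 5 edge, replicate 5 of the day 6 center, replicate 5 of the day 9 center and replicate 1 of the day 11 center. Their mean r with the other replicates lay between 0.425 and 0.911. The markers of suprabasal keratinocytes summed to 24886 CPM in the deviating day 3 center library, against 9.60 to 1665 in the other center samples of that day, and to 19.8 CPM in the deviating day 3 edge library, against 8832 to 40913 in the other edge samples. These 2 libraries went against their location labels in this respect, so results of day 3 are given with and without them. The deviating day 11 center library carried basal keratinocyte markers at 24755 CPM, against 252 to 508 in the others of its state. Skeletal muscle markers summed to 67111 CPM in the deviating day 2 center library (2.44 to 22050 in the others), to 53452 CPM in that of day 6 (3.63 to 91.7) and to 31648 CPM in that of day 9 (2.42 to 45.1). In the deviating day 5 edge library fibroblast markers summed to 63522 CPM, above the 22468 to 52669 of the others.

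**Figure D1:**
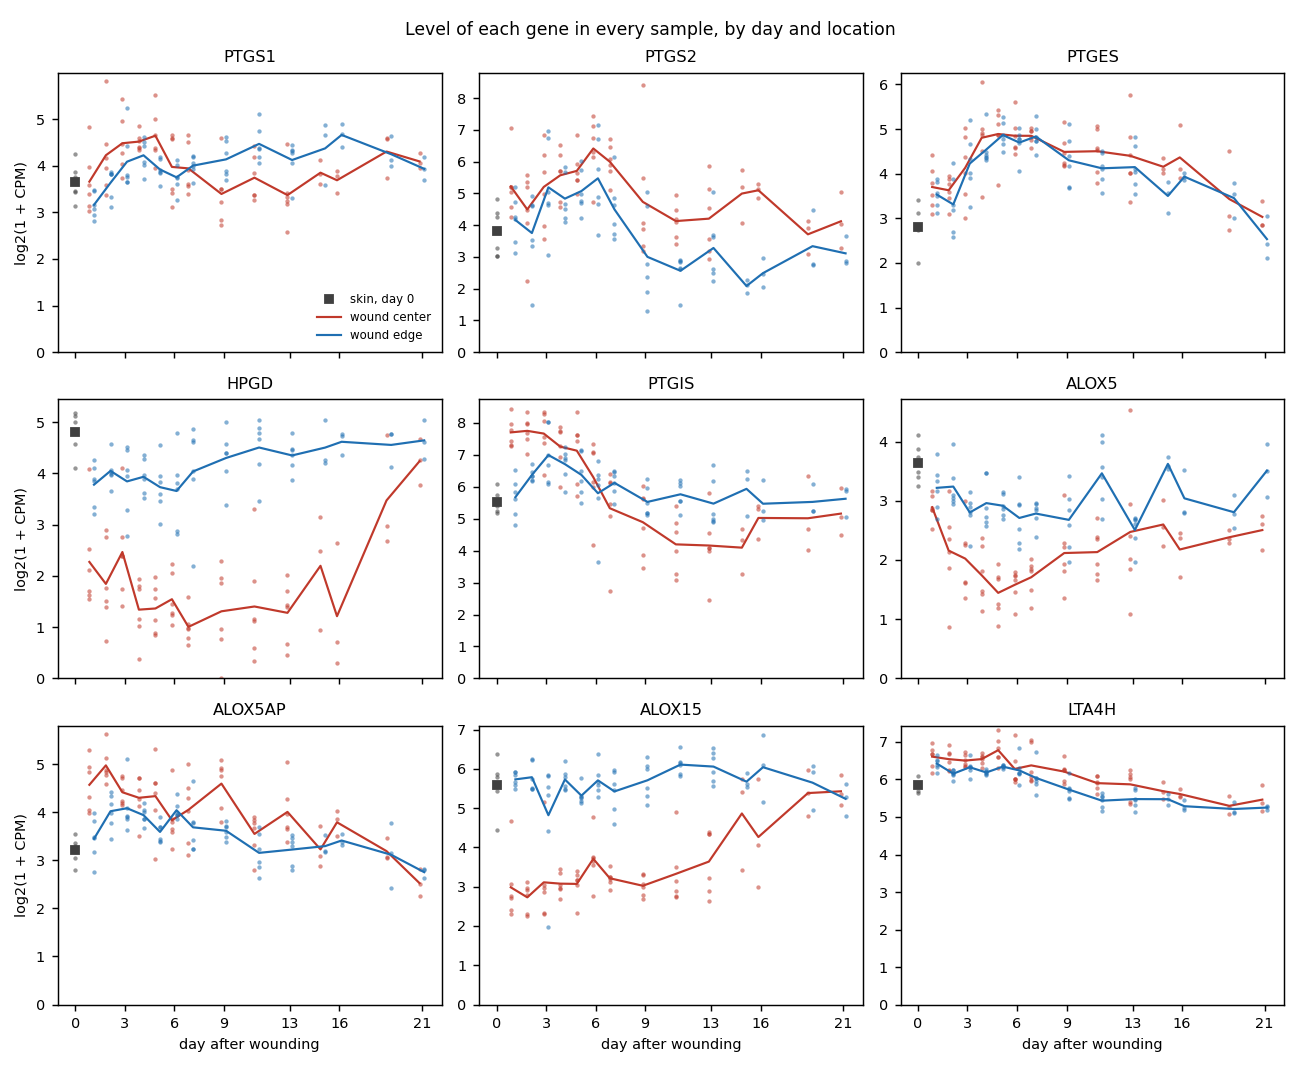
Expression of the 9 genes in every sample, as log2(1 + CPM) against the day after wounding, with the wound edge, the wound center and day 0 skin in separate colours, 1 point per sample and lines through the means of each state. HPGD, ALOX5 and ALOX15 ran lower in the center than at the edge on most days, and PTGS2 ran higher in the center.

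The first comparison asked where in the wound each gene was expressed. Over the 9 genes and 14 days, 29 of 126 pairs of gene and day were higher at the edge (23.0%) and 18 were lower (14.3%), against 12.5% and 11.0% of the pairs over all genes tested. HPGD and ALOX15 gave 9 of the higher pairs each, and the 14 days of a gene share animals. As the genes were chosen with earlier results of these data known, the shares here and below are descriptive. The genes higher at the edge were mainly HPGD, ALOX15 and ALOX5, and those higher in the center were mainly ALOX5AP, LTA4H and PTGS2. Day 1 had 4 of the 9 genes that differed (46.6% of all genes tested on that day), day 2 had 6 (35.5%), day 4 had 4 (27.8%), day 5 had 6 (37.1%) and day 6 had 3 (14.2%). Day 7 had 4 (37.4%), day 9 had 4 (31.6%), day 11 had 7 (43.4%) and day 13 had 4 (28.4%). With 3 wounds, day 15 had 3 (17.4%) and day 16 had 2 (10.1%). None of the 9 differed on day 3 (0% of all genes by edgeR, with 1667 of 14581 at an unadjusted p under 0.05 and 1 gene by DESeq2), on day 19 (0%, with 479 unadjusted and 9 by DESeq2) or on day 21 (0.0684%, which is 10 genes, with 1269 unadjusted, 312 by DESeq2 and 64 with the wound as a block). Of the 9, ALOX5 passed on day 21 by DESeq2 (1.19, adjusted p = 0.0406). Without the 2 deviating libraries of day 3, 2630 of 14548 genes (18.1%) and 4 of the 9 differed on that day.

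**Figure D2:**
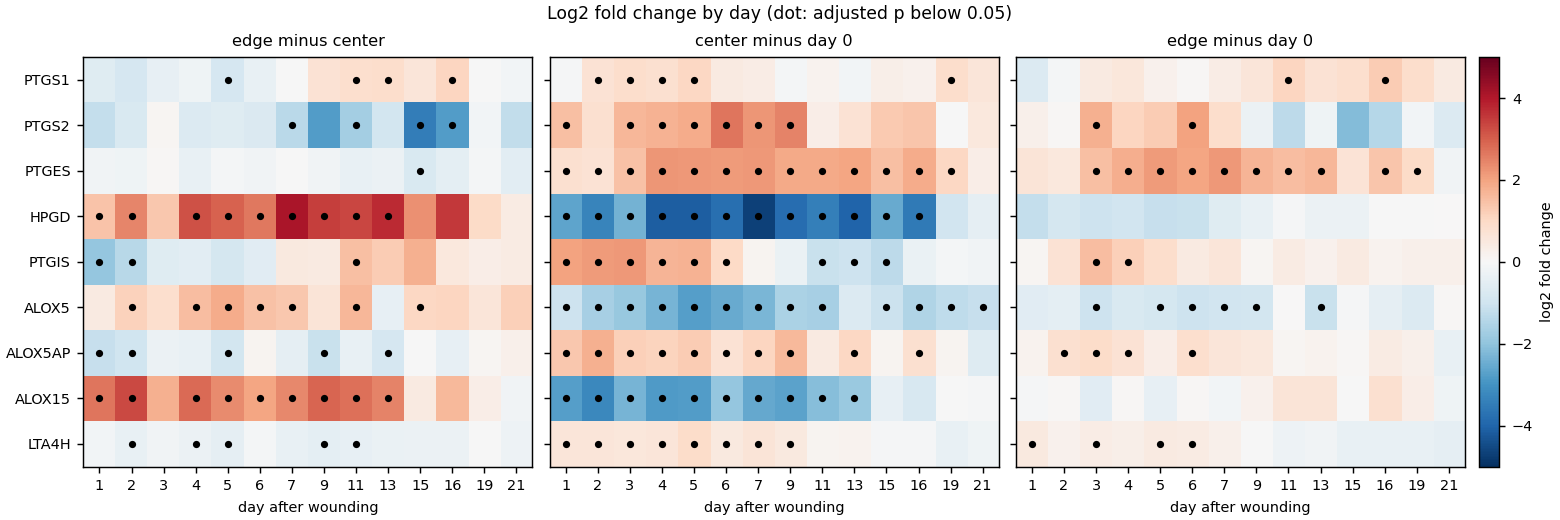
Log2 differences of the 9 genes by day for the edge minus the center, the center minus day 0 skin and the edge minus day 0 skin, with marks where the Benjamini-Hochberg adjusted p of edgeR's quasi-likelihood test was under 0.05. The center had 49 pairs above and 38 below day 0, the edge 24 above and 6 below.

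The second comparison asked how wound tissue differed from the skin of day 0. In the wound center 49 of 126 pairs were higher than day 0 (38.9%) and 38 were lower (30.2%), against 28.2% and 27.5% over all genes. At the edge 24 pairs were higher (19.0%) and 6 were lower (4.76%), against 19.9% and 14.6% over all genes. When each edge state was fitted with day 0 alone, 36 pairs were higher and 23 lower, against 22.5% and 20.7% over all genes, so the few lower calls at the edge depend on this choice. PTGES was higher than day 0 in both locations on most days, whereas HPGD and ALOX15 were lower in the center on 12 and 10 days. At the edge both passed on no day in edgeR's fit of all samples with TMM scaling. By DESeq2, HPGD passed as lower at the edge on days 1, 5 and 6. All of these contrasts share the same 6 samples of day 0.

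PTGS2 encodes the inducible cyclooxygenase. Its level in day 0 skin was 7.16, 13.4 and 27.4 CPM. In the center it was 25.8, 91.9 and 172 CPM on day 6 and 33.3, 62.7 and 104 CPM on day 7. The day 7 values lay above all samples of day 0, while the lowest day 6 sample was below the highest of day 0. Against day 0, the log2 difference in the center was 2.69 ± 0.65 (SE, adjusted p = 0.000191) on day 6, a 6.45-fold higher level, and 2.22 ± 0.64 (adjusted p = 0.00171) on day 7, and PTGS2 was also higher in the center on days 1, 3, 4, 5 and 9. The day 9 center rested on 1 library: the values were 8.10, 14.8 and 344 CPM, and without replicate 3 the difference fell from 2.47 to 0.63 and no longer passed. At the edge PTGS2 was higher than day 0 on day 3 (log2 difference 1.77 ± 0.63, adjusted p = 0.0165) and day 6 (2.00 ± 0.64, adjusted p = 0.00604). Leaving out a replicate ended the center calls of day 1 (without replicate 1, 2, 4 or 6), day 3 (without replicate 4) and day 4 (without replicate 1) and the edge call of day 3 (without replicate 3 or 4). Without the 7 deviating libraries the day 3 center had 1.22 (adjusted p = 0.0823). An animal block ended the center calls of days 1, 3 and 5 (1.07, 1.19 and 1.47, adjusted p = 0.236, 0.187 and 0.0944) and the edge call of day 3 (1.24, adjusted p = 0.199).

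Within the wounds, PTGS2 was higher in the center on days 7, 11, 15 and 16. On day 15 the 3 edge samples had 3.88, 2.63 and 3.31 CPM and the 3 center samples 15.7, 35.7 and 51.8 CPM. On day 16 the edge samples had 3.12, 4.48 and 6.84 CPM and the center samples 27.9, 38.5 and 34.3 CPM. The groups did not overlap on either day, nor on day 11, when the edge had 1.82, 5.70 and 6.49 CPM and the center 9.63, 16.8 and 30.0 CPM. The edge minus center difference was -1.69 ± 0.34 on day 11 (adjusted p = 0.00199), -3.45 ± 0.48 on day 15 (adjusted p = 0.0173) and -2.79 ± 0.26 on day 16 (adjusted p = 0.0131), and -1.34 ± 0.42 on day 7 (adjusted p = 0.0253). The edge samples of days 11, 15 and 16 also lay below every sample of day 0 skin. The edge minus day 0 difference did not pass there by edgeR in the fit of all samples. It passed on these days when each state was fitted with day 0 alone (-1.37 to -2.15). On day 15 it also passed by DESeq2 (-2.17, adjusted p = 0.0308) and when the wounds of an animal were summed (-2.15, adjusted p = 0.0226). Days 13, 19 and 21 did not pass between the locations: on day 13 there were 3 wounds each way, on day 19 the edge was higher in 1 of 3 wounds, and on day 21 it was lower in 3 of 3 (-1.22, adjusted p = 0.532). With the wound as a block, PTGS2 also passed on day 1 (-1.05, adjusted p = 0.00850), day 2 (-0.79, adjusted p = 0.0228), day 5 (-0.64, adjusted p = 0.0396) and day 9 (-1.90, adjusted p = 0.0141), each lower at the edge. The calls of days 15 and 16 were lost without replicate 2 or without replicate 3, and that of day 7 without replicate 1, 3, 4 or 5. The call of day 11 held in every alternative.

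PTGS1, the constitutive cyclooxygenase, moved less. Its day 0 level was 7.75, 11.3 and 17.9 CPM, and its 29 state means lay between 3.16 (day 1 edge) and 4.66 (day 16 edge) on the log2(1 + CPM) scale. In the center it was higher than day 0 on days 2, 3, 4, 5 and 19, with log2 differences of 0.73 to 1.03, and at the edge on days 11 and 16 (1.06 and 1.27). On day 5 the center had 14.4, 22.1 and 45.0 CPM and the edge 10.8, 13.8 and 17.2 CPM, with the center higher in 6 of 6 wounds (-0.83 ± 0.23, adjusted p = 0.0124). The order was the opposite on day 16, when the 3 edge samples had 28.8, 24.5 and 20.3 CPM and the center samples 9.64, 13.7 and 12.7 CPM (1.09 ± 0.25, adjusted p = 0.0469), as well as on days 11 (0.85 ± 0.26, adjusted p = 0.0183) and 13 (0.86 ± 0.30, adjusted p = 0.0470). Each of these calls was lost on leaving out some replicate: replicate 2 on day 5, replicate 1 on day 11, replicates 1, 2, 5 or 6 on day 13 and any of the 3 on day 16. The wound block gave an adjusted p of 0.0586 on day 16. In the day 2 center, the difference from day 0 fell from 0.73 to 0.06 without replicate 4. The center calls of days 3, 4 and 19 and the edge calls of days 11 and 16 were each lost without some replicate as well (replicates 1 or 3, replicate 3, replicates 1, 3, 5 or 6, replicate 1 and replicate 1). The day 19 center has no replicate 5 or 6 of its own. With the animal as a block the center calls of days 2, 3, 4 and 19 were lost, with adjusted p of 0.0833, 0.0554, 0.0550 and 0.0800. The markers of fibroblasts had r = 0.73 with PTGS1 over the 14 edge states and -0.18 over the 14 center states. They summed to 6190, 28356 and 63897 CPM at the early edge and to 82163, 129121 and 190263 CPM at the late edge, where 8 of 10 had a higher median. Their part in the result was not tested.

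PTGES encodes the inducible microsomal synthase of prostaglandin E, which acts downstream of PTGS2. The level in day 0 skin was 3.03, 6.00 and 9.62 CPM, the second lowest of the 29 states by mean. It was 10.1, 28.8 and 65.2 CPM in the center on day 4, 12.5, 31.0 and 41.8 CPM on day 5 and 22.9, 28.7 and 31.7 CPM on day 7. At the edge it was 21.3, 27.2 and 37.8 CPM on day 5 and 20.4, 26.5 and 38.2 CPM on day 7. The rise was shared by both locations, and on days 4, 5, 6, 7, 9, 11 and 16 neither location overlapped with day 0. How many of all genes did the same was not counted. Against day 0, PTGES was higher in the center on 13 of 14 days, up to 2.20 ± 0.32 on day 4 (adjusted p = 2.77e-09), and at the edge on 10 days, up to 2.15 ± 0.32 on day 7 (adjusted p = 2.00e-08). By day 21 the center had 6.26, 6.18 and 9.48 CPM and the edge 7.28, 3.33 and 4.41 CPM, which overlapped with day 0. Edge and center differed on day 15 alone (-0.77 ± 0.20, adjusted p = 0.0458), and this call was lost with the wound as a block (adjusted p = 0.0873) and without any of the 3 replicates. The markers of neutrophils summed to 21.4, 29.9 and 39.6 CPM in day 0 skin, where MPO had a median of 0, to 474, 2438 and 11233 CPM in the center of days 5 to 13 and to 615, 2557 and 13780 CPM at the edge of those days, with 10 of 11 higher than day 0 in both locations. Their r with PTGES was 0.47 over the 14 center states and 0.69 over the 14 edge states. In the center other lists had a higher r with PTGES, among them endothelial cells (0.66), smooth muscle and pericytes (0.57) and macrophages and monocytes (0.54), and at the edge endothelial cells had 0.67. The part of none of these lists in the result was tested. In the day 19 center, the difference from day 0 fell from 1.03 to 0.07 without replicate 2. The center calls of days 1 (without replicate 2 or 4) and 2 (without any replicate but 3) and the edge calls of days 16 (without replicate 2) and 19 (without replicate 1, 2 or 6) were lost too. The day 19 edge has no replicate 6 of its own. An animal block ended the center calls of days 1, 2 and 19 (adjusted p = 0.0722, 0.142 and 0.121) and the edge call of day 19 (adjusted p = 0.146).

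PTGIS, the prostacyclin synthase, had its highest levels in the center in the first days. Day 0 skin had 34.9, 43.7 and 66.5 CPM. The center had 155, 197 and 346 CPM on day 1, 128, 228 and 324 CPM on day 2 and 81.5, 228 and 327 CPM on day 3, all above day 0. The edge of the same wounds had 26.9, 52.5 and 92.0 CPM on day 1 and 71.8, 79.4 and 104 CPM on day 2. PTGIS was lower at the edge in 6 of 6 wounds on both days, with log2 differences of -1.94 ± 0.28 (adjusted p = 0.000286) and -1.39 ± 0.16 (adjusted p = 2.33e-05). The direction was the opposite on day 11, when the edge had 33.4, 55.4 and 73.6 CPM and the center 7.52, 18.9 and 41.3 CPM, with the edge higher in 6 of 6 wounds (1.49 ± 0.39, adjusted p = 0.00887). On day 15 the edge samples had 32.8, 89.4 and 74.2 CPM and the center samples 8.62, 24.8 and 19.1 CPM, which did not overlap. Days 13 and 15 did not pass in edgeR's fit of the day (1.28, adjusted p = 0.0739, and 1.79, adjusted p = 0.0527). They passed with the wound as a block (1.44, adjusted p = 0.0106, and 1.83, adjusted p = 0.0259). They also passed by DESeq2 (1.25, adjusted p = 0.0290, and 1.80, adjusted p = 0.00177) and in edgeR's fit of all samples (adjusted p = 0.0201 and 0.0357). The calls of days 1, 2 and 11 held in every alternative.

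Against day 0, PTGIS was higher in the center on days 1 to 6, up to 2.16 ± 0.44 on day 3 (adjusted p = 1.12e-05), and at the edge on days 3 (1.54 ± 0.43, adjusted p = 0.00186) and 4 (1.17 ± 0.43, adjusted p = 0.0212). In the center it was lower than day 0 on days 11, 13 and 15 (-1.12, -1.02 and -1.32). These late calls were lost when single replicate numbers were left out across the fit (1, 3 or 5 for days 11 and 15, any but 6 for day 13). The day 15 center has no replicate 5 of its own. The center call of day 6 (without 1, 3 or 6) and the edge call of day 4 (without 1, 3 or 6) were lost as well. With the animal as a block the center calls of days 6, 11 and 15 (adjusted p = 0.191, 0.0826 and 0.0848) and the edge call of day 4 (adjusted p = 0.149) were lost. Without the 7 deviating libraries the day 11 center had -0.95 (adjusted p = 0.0561). The markers of adipocytes moved with PTGIS: 8 of 8 had a higher median in the center of days 1 to 4 than in day 0 skin and than at the edge of days 1 to 4. Their summed level was 348, 884 and 2004 CPM (lowest, median and highest) in day 0 skin, 878, 5794 and 19778 CPM in the early center and 370, 1768 and 14205 CPM at the early edge. In the late wounds 7 of 8 were higher at the edge, where they summed to 159, 1208 and 6860 CPM, than in the center, with 182, 477 and 4193 CPM. Over the 14 center states the means of PTGIS and of this marker list correlated with r = 0.89, and over the 14 edge states with r = 0.78, where the points share libraries and animals. At the edge the list of macrophages and monocytes had a higher r with PTGIS (0.90, and 0.51 in the center). The part of these markers in the result was not tested.

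HPGD encodes the dehydrogenase that inactivates prostaglandins. Day 0 skin had the highest mean of all 29 states, with 16.2, 29.4 and 35.3 CPM. In the center it was 0.565, 0.966 and 1.99 CPM on day 7, between 10 and 34 counts per sample, while the edge of the same wounds had 3.55, 19.4 and 28 CPM. On day 9 the center had 0, 1.80 and 3.90 CPM, where 1 library had no count, which allows up to 3 counts. HPGD was lower in the center than in day 0 skin on 12 days, with no overlap on any of them, while the share of all genes without overlap was not counted. The difference of HPGD was -4.67 ± 0.60 on day 7 (adjusted p = 3.25e-11), a 25.5-fold lower level. It did not pass on days 19 and 21, when the 3 center samples had 6.84, 5.45 and 26.0 CPM and 12.6, 18.3 and 24.6 CPM. At the edge HPGD passed on no day against day 0 in edgeR's fit of all samples with TMM scaling. By DESeq2 it was lower on days 1, 5 and 6 (-1.27, -1.23 and -1.17, adjusted p = 0.0307, 0.0346 and 0.0395). It also passed as lower on these days by edgeR with RLE size factors. With each state fitted with day 0 alone it was lower on days 1 to 6 (-0.91 to -1.15), and without the 7 deviating libraries it was lower on days 1 (-1.18), 5 (-1.18) and 6 (-1.11), with adjusted p of 0.0306, 0.0445 and 0.0352.

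Between the locations, HPGD was higher at the edge on 9 days, and edge and center did not overlap on 10 days. The latter count was not made over all genes. The log2 difference was 1.42 ± 0.51 on day 1 (adjusted p = 0.0387), 2.43 ± 0.43 on day 2 (adjusted p = 0.000722), 4.09 ± 0.47 on day 7 (adjusted p = 2.50e-05) and 3.72 ± 0.41 on day 13 (adjusted p = 7.88e-05), and between 2.64 and 3.44 on days 4, 5, 6, 9 and 11. The call of day 1 was lost on leaving out any replicate but 5, and the other 8 calls held in every alternative. On day 3 the difference was 1.35 with all libraries and 2.23 ± 0.35 (adjusted p = 0.00143) without the deviating ones. On day 16 the center had 5.26, 0.224 and 0.626 CPM and the edge 25.5, 19.4 and 26.2 CPM. HPGD did not pass in edgeR's fit of that day (3.54, adjusted p = 0.0742). It passed with the wound as a block (4.31, adjusted p = 0.0403), by DESeq2 (3.57, adjusted p = 0.000541) and in edgeR's fit of all samples (3.53, adjusted p = 0.00135). Day 15 also passed by DESeq2 (2.27, adjusted p = 0.00723) and in that fit of all samples (2.24, adjusted p = 0.0297), but not in the fit of the day.

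ALOX5, the lipoxygenase that begins the making of leukotrienes, was also lower in the center. Day 0 skin had 8.50, 11.3 and 16.2 CPM. On day 5 the center had 0.855, 1.80 and 2.83 CPM, from 12 to 53 counts, and the edge 5.43, 6.40 and 7.91 CPM, so that the 3 groups did not overlap. Against day 0 the center was lower on 13 days, all but day 13, and the difference was -2.76 ± 0.37 on day 5 (adjusted p = 8.64e-11). The day 13 center was spread widely, with 1.12, 3.67 and 22.1 CPM. It passed as lower than day 0 without replicate 4 (-1.73, adjusted p = 1.05e-05) and without TMM scaling (-0.82, adjusted p = 0.0318). The edge was lower than day 0 on days 3, 5, 6, 7, 9 and 13, by smaller differences of -0.88 to -1.12. Edge and center differed on days 2, 4, 5, 6, 7, 11 and 15, always with the edge higher, from 1.04 ± 0.27 on day 15 (adjusted p = 0.0474) to 1.87 ± 0.26 on day 5 (adjusted p = 9.38e-05). The call of day 15 was lost with the wound as a block (adjusted p = 0.0684) and without any of the 3 replicates, and that of day 2 without the deviating library (adjusted p = 0.0597) or replicate 3, 4 or 6, whereas those of days 4, 5, 6, 7 and 11 held in every alternative. Without the deviating libraries of day 3 the difference on that day was 1.36 ± 0.27 (adjusted p = 0.00531) instead of 0.85. Against day 0, replicates decided the center calls of days 15 (2 or 3), 19 (2 or 3) and 21 (any) and the edge calls of days 5 (1, 2, 3 or 5), 7 (2), 9 (2, 3 or 5) and 13 (2). With the animal as a block the center call of day 19 (adjusted p = 0.0535) and the edge calls of days 6 and 9 (adjusted p = 0.0534 and 0.127) were lost.

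ALOX5AP encodes the membrane protein that presents arachidonic acid to ALOX5, and its levels moved in the opposite direction. Day 0 skin had 5.99, 8.65 and 10.6 CPM. On day 2 the center had 23.0, 28 and 48.6 CPM and the edge 9.83, 15.9 and 20.4 CPM, and these did not overlap. Against day 0 it was higher in the center on days 1 to 7, 9, 13 and 16, up to 1.79 ± 0.27 on day 2 (adjusted p = 5.86e-09), and at the edge on days 2, 3, 4 and 6 by 0.73 to 0.90. The edge value of day 3 fell from 0.90 to 0.60 (adjusted p = 0.0546) without the deviating libraries, while the day 7 edge passed without them (0.60, adjusted p = 0.0427). ALOX5AP was lower at the edge than in the center on days 1 (-1.16 ± 0.27, adjusted p = 0.00390), 2 (-0.99 ± 0.21, adjusted p = 0.00297), 5 (-0.93 ± 0.30, adjusted p = 0.0249), 9 (-1.12 ± 0.22, adjusted p = 0.00218) and 13 (-0.84 ± 0.26, adjusted p = 0.0293). The call of day 13 was lost with the wound as a block (adjusted p = 0.0608). Those of days 5, 9 and 13 were lost when the 2 wounds of an animal were summed, that of day 5 also without replicate 2, 4, 5 or 6 and that of day 13 without replicate 1, 3, 4 or 5. Against day 0, the center calls of days 6 (without replicate 4) and 16 (without 2, 3 or 6) and the edge calls of days 2 (without 6), 3 (without 6, from 0.90 to 0.47) and 4 (without 3 or 6) were lost. The day 16 center has no replicate 6 of its own. With the animal as a block the day 16 center (adjusted p = 0.0615) and the day 2 and 4 edges (adjusted p = 0.0506 and 0.0691) were lost. Without the deviating libraries, day 3 passed as well (-0.57 ± 0.14, adjusted p = 0.0196). On day 21 the center had 3.80, 6.01 and 4.66 CPM.

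LTA4H, the hydrolase that makes leukotriene B, varied least among samples, with a pooled SD of 0.27 on the log2(1 + CPM) scale within states. Day 0 skin had 48.5, 57.5 and 67.3 CPM. On day 5 the center had 78.2, 104 and 159 CPM and the edge 76.2, 80.2 and 83.4 CPM, both above all day 0 samples. In the center it was higher than day 0 on days 1 to 7 and 9, up to 0.91 ± 0.15 on day 5 (adjusted p = 4.13e-08), and at the edge on days 1, 3, 5 and 6 by 0.38 to 0.47. The day 3 edge fell to 0.32 (adjusted p = 0.0777) without the deviating libraries. The edge was lower than the center on days 2, 4, 5, 9 and 11, by -0.31 to -0.50. Of these calls, that of day 11 (-0.41 ± 0.09, adjusted p = 0.00387) held in every alternative, and those of days 2, 4, 5 and 9 were lost when the wounds of an animal were summed or without 1 replicate (4 or 6, 2, 3 or 6, 2 or 6, and 2). Against day 0, the center calls of days 6 (without replicate 4) and 9 (without 5) and the edge calls of days 1 (without 3 or 6), 3 (without 3, 5 or 6), 5 (without 6) and 6 (without 3 or 6) were lost. With the animal as a block the edge calls of days 1, 3 and 5 were lost (adjusted p = 0.0779, 0.164 and 0.0983). On day 19 the 3 edge samples had 33.8, 41.1 and 33.9 CPM, all below day 0. The difference from day 0 did not pass in the fit of all samples with TMM scaling. It passed when the wounds of an animal were summed (-0.37, adjusted p = 0.0363) and without TMM scaling (-0.65, adjusted p = 0.00764). With each state fitted with day 0 alone, the edge was lower on days 11, 15, 16, 19 and 21 (-0.31 to -0.43).

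The markers of macrophages and monocytes were also higher in the center than at the edge, by the median of 11 of 11 genes in each period. They summed to 254, 396 and 499 CPM in day 0 skin, where MARCO had a median of 0, to 1044, 2295 and 3691 CPM in the center of days 1 to 4 and to 334, 1295 and 2823 CPM at the edge of those days. In the late wounds the sums were 831, 1434 and 1844 CPM in the center and 438, 721 and 1034 CPM at the edge. Over the 14 center states the means of ALOX5AP and LTA4H correlated with this list with r = 0.82 and 0.83, and over the 14 edge states with 0.83 and 0.84. PTGS2 did so with 0.36 in the center and 0.81 at the edge. Other lists moved with these genes as closely. The platelet list had r = 0.85 in the center and 0.89 at the edge with ALOX5AP, and 0.79 and 0.81 with LTA4H. Its sums differed little between groups, with 67.4, 79.7 and 84.7 CPM in day 0 skin, 49.9, 79.5 and 98.3 CPM in the center of days 1 to 4 and 61.2, 65.4 and 81.4 CPM in the late center, and PPBP and PF4, its defining genes, had a median of 0 in day 0 skin.

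The adipocyte list had r = 0.87 with LTA4H and 0.80 with ALOX5AP in the center. The endothelial list, whose 9 genes all had a higher median in the center than at the edge in each period, summed to 351, 476 and 561 CPM in day 0 skin, to 821, 1628 and 2542 CPM in the center of days 1 to 4 and to 222, 824 and 1814 CPM at the edge of those days. None of its genes had a median of 0. Over the center states it had r = 0.63 with PTGS2, 0.81 with ALOX5AP, 0.75 with LTA4H and -0.81 with HPGD. The part of these markers in the levels of the 4 genes was not tested.

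ALOX15 encodes a lipoxygenase that adds oxygen to arachidonic and linoleic acid and is known in skin and leukocytes. Day 0 skin had 20.8, 50.3 and 82.6 CPM. On day 2 the center had 3.75, 6.26 and 7.71 CPM, the lowest of the 29 states by mean, and the edge had 43.7, 48.6 and 75.0 CPM. The center lay below every day 0 sample on that day, while the edge lay within their range. Against day 0 the center was lower on all 10 days from day 1 to day 13, with -3.23 ± 0.42 on day 2 (adjusted p = 6.59e-11), and the edge passed on no day. Edge and center differed on 9 days (1, 2, 4, 5, 6, 7, 9, 11 and 13), from 1.98 ± 0.30 on day 6 (adjusted p = 0.000323) to 3.3 ± 0.20 on day 2 (adjusted p = 7.13e-08), with no overlap on any of them. Overlap was not counted over all genes. All 9 calls held in every alternative that gave an adjusted p. On day 3 the difference was 1.79 with all libraries and 2.98 ± 0.31 (adjusted p = 0.000149) without the deviating ones. By day 21 the 3 center samples had 40.1, 55.9 and 33.1 CPM and the edge samples 47.9, 38.1 and 27.0 CPM.

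Markers of keratinocytes moved with ALOX15, HPGD and ALOX5. All 8 suprabasal markers found had a higher median at the edge than in the center in each period, and none had a median of 0. They summed to 22472, 44366 and 66141 CPM in day 0 skin, 9.60, 122 and 24886 CPM in the center of days 1 to 4, 19.8, 39831 and 49329 CPM at the edge of those days, and 81.1, 3916 and 50016 CPM in the center of days 15 to 21. Over the 14 center states this list correlated with ALOX15 with r = 0.92, with HPGD with 0.89 and with ALOX5 with 0.55, and over the 14 edge states with 0.65, 0.47 and 0.55. Basal keratinocyte markers had r = 0.95 with ALOX15 in the center and 0.66 at the edge. The part of the keratinocyte markers in the levels of the 3 genes was not tested. Day 0 skin and the edge samples, apart from the deviating edge library of day 3, thus carried the defining markers of epidermis.

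**Figure D3:**
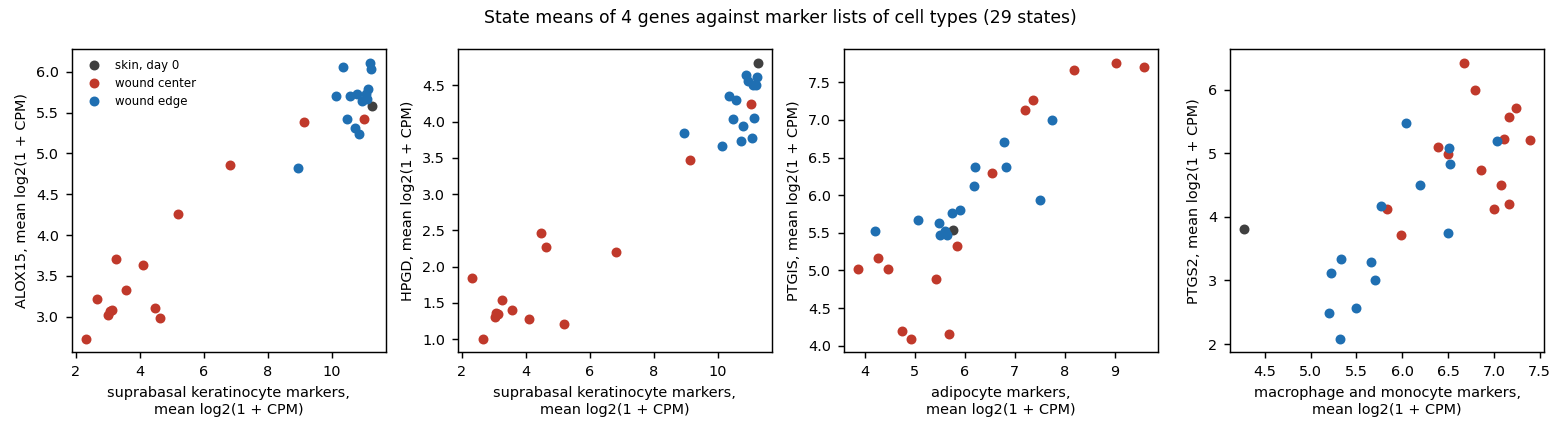
State means of ALOX15, HPGD, PTGIS and PTGS2, each against the mean of the markers of 1 cell type list, on the log2(1 + CPM) scale. Each point is 1 of the 29 states, with edge, center and day 0 skin in separate colours. ALOX15 and HPGD are set against suprabasal keratinocytes (Pearson's r = 0.97 and 0.96) and PTGIS against adipocytes (0.85). PTGS2 is set against macrophages and monocytes (0.71). The states share libraries of the same animals. ALOX5AP, which is not drawn, had its highest r with platelets (0.85, and 0.76 with macrophages).

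The comparison of late with early wounds holds all 6 animals in both periods: 12 samples per location on days 15, 16, 19 and 21 against 24 samples on days 1 to 4. In the center 5 of the 9 genes differed (57.3% of all genes tested). PTGIS had 63.2, 207 and 346 CPM early and 8.62, 24.8 and 80.3 CPM late (-2.39 ± 0.26, adjusted p = 2.13e-09). ALOX5AP (-1.16 ± 0.19, adjusted p = 4.16e-06) and LTA4H (-0.75 ± 0.08, adjusted p = 6.18e-10) were also lower late. ALOX15 had 3.75, 6.64 and 34.7 CPM early and 6.94, 40.5 and 61.1 CPM late (2.48 ± 0.30, adjusted p = 1.76e-08), and HPGD was higher late by 1.59 ± 0.47 (adjusted p = 0.00406).

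At the edge 7 of the 9 genes differed between the periods (45.5% of all genes). PTGS2 had 1.82, 23.5 and 125 CPM early and 2.63, 5.79 and 21.5 CPM late, which overlapped (-1.87 ± 0.44, adjusted p = 0.000677). LTA4H had 60.9, 75.1 and 100 CPM early and 33.8, 38.0 and 48.1 CPM late, which did not overlap (-0.74 ± 0.06, adjusted p = 1.75e-12). ALOX5AP (-0.57 ± 0.17, adjusted p = 0.00600) and PTGIS (-0.69 ± 0.25, adjusted p = 0.0223) were lower late as well. HPGD (0.95 ± 0.14, adjusted p = 1.41e-06), PTGS1 (0.75 ± 0.21, adjusted p = 0.00351) and ALOX5 (0.46 ± 0.16, adjusted p = 0.0144) were higher late. The call of PTGIS was lost without animal 1326 or 1327 and that of ALOX5 without animal 1323, 1324 or 1327 and without TMM scaling (0.23).

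Whether the difference between edge and center itself changed from early to late wounds was tested as an interaction. It changed for 3 of the 9 genes (20.9% of all genes tested). The difference of ALOX15 fell by 2.07 ± 0.40 (adjusted p = 0.000111), while that of PTGIS rose by 1.72 ± 0.34 (adjusted p = 0.000186). The median edge minus center difference of PTGIS was below 0 on days 1 to 4 and above 0 on days 15, 16, 19 and 21. In edgeR's fits of single days PTGIS passed on days 1 and 2 and on none of these late days. The change of PTGS1 was 0.85 ± 0.32 (adjusted p = 0.0456), and it was lost without animal 1323, 1325, 1326, 1327 or 1328 and without the filter on low counts. With the wound as a block PTGS2 (-1.29, adjusted p = 0.0157) and ALOX5AP (0.66, adjusted p = 0.00689) passed too, and both passed without the 7 deviating libraries (-1.45, adjusted p = 0.0382, and 0.68, adjusted p = 0.0243).

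The animal is the independent unit of the experiment, so edge minus center was also averaged over the 12 wounds of each animal on the log2(1 + CPM) scale and tested by an exact two-sided sign-flip test, which with 6 animals cannot go below p = 0.0312. All 9 genes were compared, and 6 of them had the same sign in 6 of 6 animals and this smallest p. Benjamini-Hochberg adjusted over the 9 genes, the p of the sign-flip test was 0.0469 for each of the 6. This adjusted value lies narrowly under 0.05 and depends on how many genes share the smallest p. HPGD was higher at the edge by 2.33 ± 0.40 (SD, n = 6 animals, in 69 of 72 wounds), ALOX15 by 2.15 ± 0.22 (67 wounds) and ALOX5 by 0.89 ± 0.30 (65 wounds). PTGS2 was lower at the edge with -1.11 ± 0.09 (61 of 72 wounds), ALOX5AP with -0.49 ± 0.20 (54 wounds) and LTA4H with -0.31 ± 0.07 (57 wounds). The animals ranged from -1.23 to -0.96 for PTGS2 and from -0.38 to -0.20 for LTA4H. PTGES (-0.20 ± 0.25, exact p = 0.125), PTGS1 (0.02 ± 0.30, exact p = 0.844) and PTGIS, with 35 wounds one way and 37 the other, did not pass. For PTGIS and PTGS1 this mean pools days on which the wounds moved in opposite directions.

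**Figure D4:**
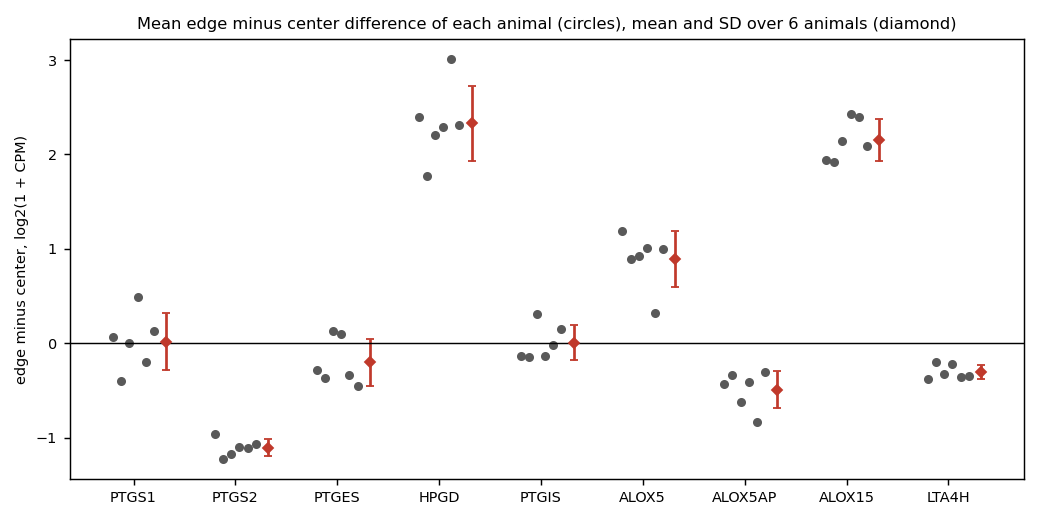
Mean difference between edge and center over the 12 wounds of each animal, on the log2(1 + CPM) scale, with 1 point per animal and the mean with its SD over 6 animals for each gene. HPGD, ALOX15 and ALOX5 were above 0 and PTGS2, ALOX5AP and LTA4H below 0 in all 6 animals.

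Levels can be compared between genes only per length, in FPKM as deposited. LTA4H was the highest of the 9 in every location, with medians of 26.6 in day 0 skin, 33.2 in the center and 28.2 at the edge, followed by ALOX5AP with 10.5, 18.3 and 13.2 and, in the wounds, by PTGIS with 8.12, 12.2 and 12.4. HPGD had medians of 8.44, 0.530 and 4.66 and ALOX15 of 8.0, 1.24 and 7.56, so that HPGD went from the third highest in skin to the lowest in the center. PTGES had 2.64, 8.39 and 7.48, PTGS2 3.71, 8.52 and 3.94, PTGS1 3.35, 4.14 and 4.24 and ALOX5 3.95, 1.06 and 2.23.

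Ratios of these per-length values within a sample set opposing genes of the pathway side by side. The ratio of PTGES to HPGD, of synthesis to breakdown of prostaglandin E, had a median of 0.360 in day 0 skin, 43.3 in the center on day 7 (from 17.2 to 79.0) and 1.96 at the edge on that day, and it was 0.578 in the center on day 21. The ratio of PTGS2 to PTGS1 had a median of 1.02 in day 0 skin, 4.66 in the center on day 6, 0.227 at the edge on day 11 and 0.125 at the edge on day 15. The ratio of ALOX5AP to ALOX5 had a median of 2.21 in day 0 skin (from 1.99 to 3.70), 38.3 in the center on day 5 (from 10.7 to 102) and 5.47 at the edge on that day. These ratios are descriptions of RNA levels and were not tested.

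**Figure D5:**
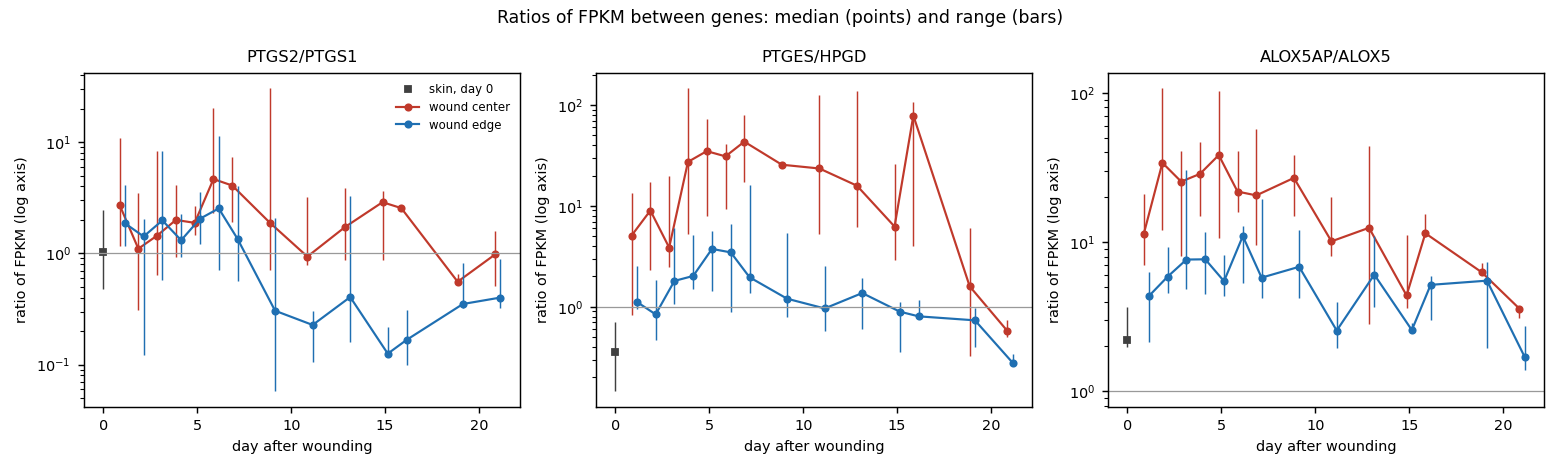
Ratios of per-length expression (PTGS2 to PTGS1, PTGES to HPGD, ALOX5AP to ALOX5) by day on a log axis, with the median of each state as a line and the lowest to highest sample as a bar, for edge, center and day 0 skin. The ratio of PTGES to HPGD reached a median of 43.3 in the day 7 center against 0.360 in day 0 skin, and the day 9 center has no upper bound because HPGD had no count in 1 library.

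The order of the 29 state means was nearly continuous. For 8 of the 9 genes no neighbours in the order differed by more than the pooled SD of the samples within states, and for HPGD 1 of 28 gaps did (1.01 against a pooled SD of 0.68). PTGS2 ran from 6.42 (day 6 center) to 2.08 (day 15 edge) with a pooled SD of 1.03, PTGIS from 7.75 (day 2 center) to 4.09 (day 15 center) with 0.79, and HPGD from 4.81 (day 0) to 1.00 (day 7 center). ALOX15 ran from 6.11 (day 11 edge) to 2.73 (day 2 center), ALOX5AP from 4.97 (day 2 center) to 2.52 (day 21 center), PTGES from 4.89 (day 5 center) to 2.53 (day 21 edge) and LTA4H from 6.78 (day 5 center) to 5.21 (day 19 edge). Among the 9 genes, the state means of HPGD and ALOX15 correlated with r = 0.90, HPGD and ALOX5 with 0.82, PTGS2 and LTA4H with 0.76 and PTGS2 and HPGD with -0.70, over states that share libraries.

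Among 13518 genes searched, the patterns most like those of the 9 genes over the 29 state means were the following. PTGS2 was followed most closely by NR4A2 (r = 0.92), SMARCA5 (0.90) and MFAP3 (0.89), PTGIS by BAG3 (0.97), HSD17B12 (0.94) and IDH1 (0.93), and PTGES by POL (0.88), WDR1 (0.87) and TAGLN2 (0.87). HPGD was followed by PIK3C2G, HSPA2 and KCTD4 (each 0.98) and ALOX15 by PGLYRP3, FAM83G and B4GALNT3 (each 0.98). ALOX5 was followed by AHNAK (0.93), SLCO3A1 (0.93) and HLF (0.92), ALOX5AP by NSMCE1 (0.93), SH3GLB1 (0.92) and SYS1 (0.91) and LTA4H by RUVBL2, DARS and NMP-200 (each 0.97). PTGS1 had no close match, with TSHZ2 (0.70), UACA (0.68) and FBN2 (0.66) first.

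The rest of the pathway was read from lists by role, of which 50 of 57 genes were found. The lists too were chosen with earlier results of these data known, so their shares are descriptive. Of the phospholipases A2, 12 genes were found, 11 were tested against day 0 and 9 between edge and center. They were lower in the center than in day 0 skin in 91 of 154 tests (59.1%) and higher in 10 (6.49%), against 27.5% and 28.2% over all genes. At the edge they were higher than in the center in 54 of 117 tests (46.2%) and lower in 2 (1.71%), against 12.5% and 11.0% over all genes. PLA2G4B fell from 69.9, 97.1 and 138 CPM in skin to 6.55, 10.9 and 52.1 CPM in the center of days 1 to 4. PLA2G3 and PLA2G4D, secreted and cytosolic members, had medians of 9.55 and 14.4 CPM in skin and 0.0872 and 0.377 CPM in the early center, and PLA2G2E had 25.3 CPM in skin and 0 in the early center. Genes this near 0 in the center, like ALOXE3 below, can pass the filter on low counts through skin or edge alone. They could then be called in 1 direction only, and the shares of their lists include them.

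The prostanoid receptors (9 genes) were higher in the center than in day 0 skin in 68 of 126 tests (54.0%, against 28.2% over all genes) and lower in 1 (0.794%, against 27.5%). They were lower at the edge than in the center in 42 of 121 tests (34.7%, against 11.0%) and higher in 1 (0.826%, against 12.5%). TBXA2R, the thromboxane receptor, had 0.799, 1.51 and 1.72 CPM in skin and 8.21, 10.9 and 16.8 CPM in the center of days 5 to 13, and was higher in the center on all 14 days. PTGIR, the receptor of prostacyclin, had 0.240, 0.878 and 2.75 CPM in skin and 7.87, 16.3 and 49.6 CPM in the center of days 1 to 4, and was higher in the center on 12 days. PTGER2, a receptor of prostaglandin E, was lower at the edge than in the center on 8 days.

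The other prostanoid synthases (8 genes) had 41 tests higher (36.6%) and 29 lower (25.9%) of 112 in the center against day 0, near the 28.2% and 27.5% over all genes. TBXAS1, the thromboxane synthase, had 0.839, 1.47 and 2.63 CPM in skin and 7.12, 24.7 and 91.6 CPM in the center of days 1 to 4, and was higher in the center on all 14 days. CBR1, a carbonyl reductase that can act on prostaglandin E, had 172, 241 and 384 CPM in skin and 5.57, 10.3 and 117 CPM in the early center, and was lower in the center on all 14 days. SLCO2A1, which carries prostaglandins into cells where HPGD can oxidise them, was higher than day 0 in the center on 13 days and at the edge on 12, and the 4 genes of transport and breakdown together had 31 tests higher (55.4%) and 5 lower (8.93%) of 56 in the center.

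The genes that make and process leukotriene C (8 genes) had 25 tests higher (22.3%) and 39 lower (34.8%) of 112 in the center against day 0, near the 28.2% and 27.5% over all genes. MGST2, a microsomal transferase that can make leukotriene C, had 7.42, 14.9 and 21.1 CPM in skin and 0.0961, 1.03 and 4.71 CPM in the center of days 5 to 13, and was lower in the center on all 14 days. DPEP2, a dipeptidase, was higher in the center on 12 days. The other lipoxygenases and epoxide hydrolases (5 genes) were lower in the center in 50 of 70 tests (71.4%) and higher in 3 (4.29%). Of them ALOX12B and ALOXE3, lipoxygenases of the skin barrier, had medians of 114 and 90.0 CPM in skin and 0.997 and 0.255 CPM in the center of days 5 to 13, and each was higher at the edge than in the center on 9 days, as ALOX15 was. Of 7 receptors of leukotrienes and related lipids 4 were found, so this list could not be used as a list. Of the 4, LTB4R2 was higher at the edge than in the center on 9 days and CYSLTR2 was higher in the center than in day 0 skin on 13 days.

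At the edge against day 0 skin, 19.9% of the tests over all genes were higher and 14.6% lower. The phospholipases A2 were higher in 9 (5.84%) and lower in 19 (12.3%) of 154 tests and the prostanoid synthases higher in 38 (33.9%) and lower in 17 (15.2%) of 112, so that the lower calls of both were near the share over all genes. The genes of transport and breakdown were higher in 23 (41.1%) and lower in 0 of 56 and the prostanoid receptors higher in 42 (33.3%) and lower in 3 (2.38%) of 126. The genes of leukotriene C were higher in 9 (8.04%) and lower in 18 (16.1%) of 112 tests, and the other lipoxygenases and epoxide hydrolases higher in 10 (14.3%) and lower in 19 (27.1%) of 70. Between edge and center, with 12.5% higher and 11.0% lower over all genes, the synthases were higher at the edge in 20 (21.1%) and lower in 9 (9.47%) of 95 tests and the genes of transport and breakdown higher in 4 and lower in 4 of 56 (7.14% each). Those of leukotriene C were higher in 12 (11.8%) and lower in 18 (17.6%) of 102 and the other lipoxygenases and epoxide hydrolases higher in 25 (35.7%) and lower in 2 (2.86%) of 70.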

How the data were processed

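Poly-A RNA of porcine skin and wound biopsies was sequenced in read pairs by a provider. Reads were filtered there for adapters, unknown bases and low quality before alignment and counting per gene. The aligner, the counter and the genome build are not given in the sources used here. The authors deposited read counts per gene without normalization, and these counts were used for all tests. They also deposited FPKM values, which equal the count per gene length and library total multiplied by a sample's own factor (0.845 to 1.307), and a gene length in bases, and these were used for levels between genes and ratios.

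The members and lists were chosen with earlier results of these data known. Samples were grouped into 29 states by the day and location in their labels, which also give the animal and wound. Tests were run in R 4.3.3 with edgeR 4.0.16 by the quasi-likelihood test after TMM scaling and filterByExpr (count 10, total 15), at a Benjamini-Hochberg threshold of 0.05: edge against center within each day (14166 to 14652 genes), each state against day 0 in one fit of 150 samples (17916 genes), late against early wounds per location (14818 and 15076 genes) and their interaction with location (15838 genes). The wound and animal blocks rest on the animal and wound in the labels, and the 2 samples of a wound deviated together from their state means in 64 of 72 wounds (mean r = 0.270 over 14081 genes). Averages per animal used log2(1 + CPM) with an exact sign-flip test in Python 3.11.15 with numpy 2.4.6 and pandas 2.3.3.

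All 9 members were named, with up to 4 genes per role of the pathway lists by the number of calls and then the mean absolute difference, and up to 3 genes per member by Pearson's r over state means among named genes with a mean of at least 1 CPM. Lists with under 80% of their genes found (mast cells, 60.0%, and lipid mediator receptors, 57.1%) were void. Marker lists with a high r with a member are described, without a fixed limit. Alternatives were DESeq2 1.42.0, other size factors, no filter, other scales and pseudocounts, blocks, summed wounds, each replicate or animal left out, and no libraries that stood apart. The fits were tested on simulated counts. Wound images and raw reads were not used here.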

Additional observations from a re-analysis of the deposited data

Results flagged for a closer look

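Of 189 groups of 6 samples tested for a lone extreme value by Dixon's ratio, 16 were flagged, where chance flags about 1 in 20 (9.45 groups). In libraries that stood apart over all genes, ALOX5AP was highest in replicate 6 of the day 3 edge (33.5 CPM), where ALOX15 was lowest (2.93 CPM), and ALOX15 was highest in replicate 4 of the day 3 center (34.7 CPM) and replicate 1 of the day 11 center (28.8 CPM). In other libraries, ALOX15 was highest in replicate 5 of the day 1 center (24.4 CPM) and replicate 3 of the day 5 edge (53.4 CPM) and lowest in replicate 5 of the day 5 center (4.00 CPM). PTGES was highest in replicate 5 of the day 4 edge (39.2 CPM) and lowest in replicate 5 of the day 5 center (12.5 CPM) and replicate 5 of the day 6 edge (15.6 CPM). PTGS2 was highest in replicate 2 of the day 1 center (132 CPM) and lowest in replicate 4 of the day 11 edge (1.82 CPM). PTGS1 was lowest in replicate 4 of the day 13 edge (8.86 CPM), HPGD in replicate 2 of the day 7 edge (3.55 CPM) and PTGIS in replicate 2 of the day 6 edge (11.6 CPM) and replicate 6 of the day 7 center (5.62 CPM).

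The difference between edge and center changed from early to late wounds, as tested by an interaction, for PTGS1 (0.85 on the log2 scale), PTGIS (1.72) and ALOX15 (-2.07). On single days the wounds of 2 genes moved all one way and on other days all the opposite way, and the difference between those days was not tested. For PTGIS the median difference between edge and center was -1.97 on day 1, -1.24 on day 2 and -0.58 on day 3, whereas day 11 had 1.36, day 13 had 0.92 and day 15 had 1.81. For PTGS1 it was -0.68 on day 5 and 0.79 on day 16.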

How the results depend on the processing

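For the 9 genes, leaving out a replicate gave 34 to 41 calls between edge and center (47 with all), 75 to 81 for the center against day 0 (87) and 22 to 32 for the edge against day 0 (30), and leaving out an animal gave 5 to 5, 5 to 7 and 2 to 3 calls for the center late, the edge late and their interaction. Fitting each state with day 0 alone gave 59 calls for the edge, of which 36 were higher and 23 lower. The interaction gave 5 calls with the wound as a replicate block, with animal sums and a replicate block, and without the libraries that stood apart, instead of 3. With a replicate block the calls numbered 50 between edge and center, 72 for the center and 20 for the edge against day 0, and 5 and 7 for the late center and edge, and the wound or animal block changed no call beyond those given beside the results. Over all comparisons of the 9 genes under the alternative fits, 2269 calls held, 221 no longer passed, 123 came to pass (33 of them with each state fitted with day 0 alone and 13 by DESeq2) and no call changed direction. The mean over all days changed its sign for PTGS1 (-0.0225 on log2(1 + counts), -0.00967 without the libraries that stood apart, -0.0789 without animal 1326 and -0.00693 without animal 1328, with up to 0.0993 without animal 1324) and for PTGIS (-0.0236 on log2(1 + counts), -0.0266 on FPKM, -0.0152 without the libraries that stood apart, -0.0566 without animal 1325 and -0.0245 without animal 1328, with up to 0.0336 without animal 1324), and 6 of 9 genes passed on every other scale and without the libraries that stood apart, whereas with 1 animal left out the smallest possible p lies above the threshold.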
